A study of Mus musculus with 24 samples.

Results

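Tumour necrosis factor (TNF) superfamily genes encode the cytokines and receptors through which macrophages signal inflammation, survival and cell death. The open chromatin of 10 of them was examined in mouse bone marrow-derived macrophages. The ligand genes were Tnf, Tnfsf9, Tnfsf10, Tnfsf15 and Tnfsf18, and the receptor genes were Tnfrsf1a, Tnfrsf1b, Tnfrsf8, Tnfrsf11a and Fas. A peak belonged to one of these genes where its summit lay nearest to that gene body among all RefSeq protein-coding genes, at a distance of at most 50 kb. This held for 1445 of 1274891 peaks, and 1433 of them made up 91 of the 80598 regions found in at least 2 libraries. The other 12 peaks lay in regions found in 1 library and were left out.

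ATAC-seq, in which the Tn5 transposase cuts accessible DNA, was performed on cultured macrophages of male C57Bl/6 mice, and all groups share this strain and sex. The 4 groups of 6 libraries were stimulated cells of diabetic mice, stimulated cells of control mice, unstimulated cells of diabetic mice and unstimulated cells of control mice. Diabetes had been induced with streptozotocin (STZ), a toxin to insulin-producing beta cells, and the macrophages were studied after growth outside the animal. Stimulated cells had received LPS (lipopolysaccharide, a bacterial cell wall component) at 100 ng/mL together with 10 ng/mL of interferon gamma. The duration of stimulation is uncertain: the protocol gives 6 h of culture for IL-1β samples, a stimulus that no other label names. Each marrow sample is described as divided between the states, but no label says that a replicate number marks 1 mouse, so tests were unpaired and measure the spread between these libraries.

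Ligands of the family are mostly membrane proteins that act as trimers, and some are shed. Their receptors pass the signal on through adaptors, and those with a death domain, such as Tnfrsf1a and Fas, can start apoptosis. Many receptors of the family, Tnfrsf1a among them, also activate NF-κB through TRAF proteins. LPS acts through Toll-like receptor signalling, for which Tnf is a classical early target in macrophages, and interferon gamma is a cytokine of T and NK cells that primes macrophages.

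The lists held 41385 to 61861 peaks per library, and depth was not given as read numbers. Stimulated cells of control mice had fewer peaks (47268 ± 4535) than the stimulated diabetic (53703 ± 4511), unstimulated diabetic (55522 ± 4925) and unstimulated control groups (55990 ± 3486, SD, n = 6 each). The libraries least like the rest of their group, by the median share of regions in common, were stimulated control replicate 6 (66.5%) and stimulated diabetic replicate 5 (66.7%). All 8 macrophage markers had a peak in all 24 libraries. Markers of other cells were in part without any peak: Ly6g and Elane among 6 of neutrophils, Cd3g, Cd8a and Ncr1 among 6 of T and NK cells, Cd79a among 5 of B cells and Gata1 among 3 of erythroid cells. A peak in all 24 libraries was present at 2 neutrophil, 1 T and NK cell, 1 B cell, 1 erythroid, 2 of 5 stromal and endothelial, 2 of 3 mast cell and 3 of 3 dendritic cell markers. Summed peaks at neutrophil markers ranged from 8 to 14 in stimulated diabetic, 8 to 12 in stimulated control, 9 to 13 in unstimulated diabetic and 9 to 11 in unstimulated control libraries. Summed peaks at the macrophage markers ranged from 31 to 46 in stimulated diabetic, 29 to 47 in stimulated control, 40 to 51 in unstimulated diabetic and 42 to 46 in unstimulated control libraries. Every stromal, mast cell and dendritic cell marker had a peak in at least 1 library. Summed peaks at the 5 stromal and endothelial markers ranged from 8 to 15 in stimulated diabetic, 8 to 13 in stimulated control, 8 to 12 in unstimulated diabetic and 7 to 12 in unstimulated control libraries. The part of other cells in the results was not tested.

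The starts of 6 of the 9 genes of known strand lay in a region found in all 24 libraries. The 250 bases before the start given by the promoter table are shown for 4 genes whose promoters contrast. The start of Tnf had a peak in every library, that of Fas had one that ranked higher with stimulation, that of Tnfrsf1b holds an ISRE match, and that of Tnfrsf8 had a peak in 1 library although its gene body held 3 regions found in all 24. Sequences are from RefSeq (GRCm38.p6, the assembly of mm10), read 5′ to 3′ on the gene's strand. The last 12 bases of the Fas window lie past the start that was used for distances, which comes from the gene table. Capitals mark matches on either strand to a κB motif (GGGNNNNNCC), an ISRE motif bound by interferon regulatory factors (GAAANNGAAA) and an AP-1 motif (TGANTCA), and runs of capitals can hold overlapping matches.
Tnf, chr17:35202008-35202257, minus strand: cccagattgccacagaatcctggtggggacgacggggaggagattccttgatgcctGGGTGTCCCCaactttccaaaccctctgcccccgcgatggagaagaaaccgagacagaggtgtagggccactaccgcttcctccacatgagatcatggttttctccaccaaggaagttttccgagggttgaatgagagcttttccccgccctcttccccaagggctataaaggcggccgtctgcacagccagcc
Fas, chr19:34290409-34290658, plus strand: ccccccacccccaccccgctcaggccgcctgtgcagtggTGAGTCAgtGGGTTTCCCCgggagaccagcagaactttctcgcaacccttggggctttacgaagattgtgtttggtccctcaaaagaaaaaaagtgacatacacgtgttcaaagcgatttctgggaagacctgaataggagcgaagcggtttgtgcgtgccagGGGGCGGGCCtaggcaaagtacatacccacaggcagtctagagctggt
Tnfrsf1b, chr4:145246871-145247120, minus strand: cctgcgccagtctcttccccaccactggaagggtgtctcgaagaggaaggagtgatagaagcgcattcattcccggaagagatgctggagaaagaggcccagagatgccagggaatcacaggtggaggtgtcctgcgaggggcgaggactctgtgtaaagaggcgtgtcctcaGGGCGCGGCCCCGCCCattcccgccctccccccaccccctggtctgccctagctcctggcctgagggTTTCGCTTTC
Tnfrsf8, chr4:145315165-145315414, minus strand: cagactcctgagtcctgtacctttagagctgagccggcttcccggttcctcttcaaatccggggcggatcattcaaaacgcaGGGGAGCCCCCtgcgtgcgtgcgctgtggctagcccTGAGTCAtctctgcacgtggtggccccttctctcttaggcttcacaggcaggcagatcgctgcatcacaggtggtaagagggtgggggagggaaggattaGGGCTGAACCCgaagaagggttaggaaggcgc

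The promoter table held 9 of the 10 genes, and the last 50 bases of the Tnfrsf11a window lie past the start in the gene table. A κB match stood in 6 of these 9 windows (Tnf, Tnfrsf1a, Tnfrsf1b, Tnfrsf8, Tnfrsf11a and Fas), against 45.8% of all 32851 promoters of the same length. An AP-1 match stood in those of Tnfrsf8 and Fas, against 6.75% of all, and an ISRE match in that of Tnfrsf1b, against 2.98%. The ETS core GAGGAA, which is short and not in capitals, stood in the windows of Tnf, Tnfsf18, Tnfrsf1b and Tnfrsf8, against 23.3% of all. A match is a description of the letters and does not show binding.

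Of the 91 regions, 31 (34.1%) were found in all 24 libraries, against 28.3% of all regions. Ligand genes held 40 regions, 7 of them inside the gene, and receptor genes held 51, 31 of them inside the gene. Of the 31 constant regions, 6 lay within 1 kb of a gene start of known strand. None of the regions called below with all peaks did, but the start of Tnfsf18 passed under another setting given below. The corresponding shares over all regions are not given here, so this is a description of these regions only. In 30 of the 31 every library had a summit assigned to the member gene. The exception is a region shared by Tnfsf9 and Tubb4a, where 7 libraries had one. Tnfsf18 had 7 constant regions, the most of the 10 genes, and Tnfrsf1a had none. Member peaks numbered 64.2 ± 5.04 per library in stimulated diabetic, 56.7 ± 7.31 in stimulated control, 59.7 ± 4.63 in unstimulated diabetic and 60.3 ± 6.12 in unstimulated control cells (SD, n = 6 each). Per 1000 peaks of the library these were 1.20 ± 0.0527, 1.20 ± 0.0840, 1.08 ± 0.0776 and 1.08 ± 0.0599, in the same order of groups.

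The first comparison asked which of these regions gained or lost their peak upon stimulation. A peak is a site that passed the authors' calling threshold, so a region without one is below that threshold and need not be closed. Both phenotypes were pooled, and detection in the libraries was compared by a two-sided Fisher's exact test with Benjamini-Hochberg adjustment over all 31219 regions that could reach an unadjusted p under 0.05. With stimulation, 6 of the 36 testable member regions were gained (16.7%), against 9.19% of all tested regions, and 4 were lost (11.1%), against 18.9% of all. These shares were not compared by a test. Gains lay at Tnfsf10, Tnfsf15, Tnfsf18, Tnfrsf8 (2 regions) and Tnfrsf11a, and losses at Tnfsf15, Tnfsf18 (2 regions) and Tnfrsf1b. No region of Tnf, Tnfsf9, Tnfrsf1a or Fas was called. The 4 calls with an adjusted p of 0.0489 below ended when p-values were adjusted over all regions, and each ended on omission of any one of 13 to 17 of the 24 libraries. The other 6 calls held on omission of any single library.

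**Figure D1:**
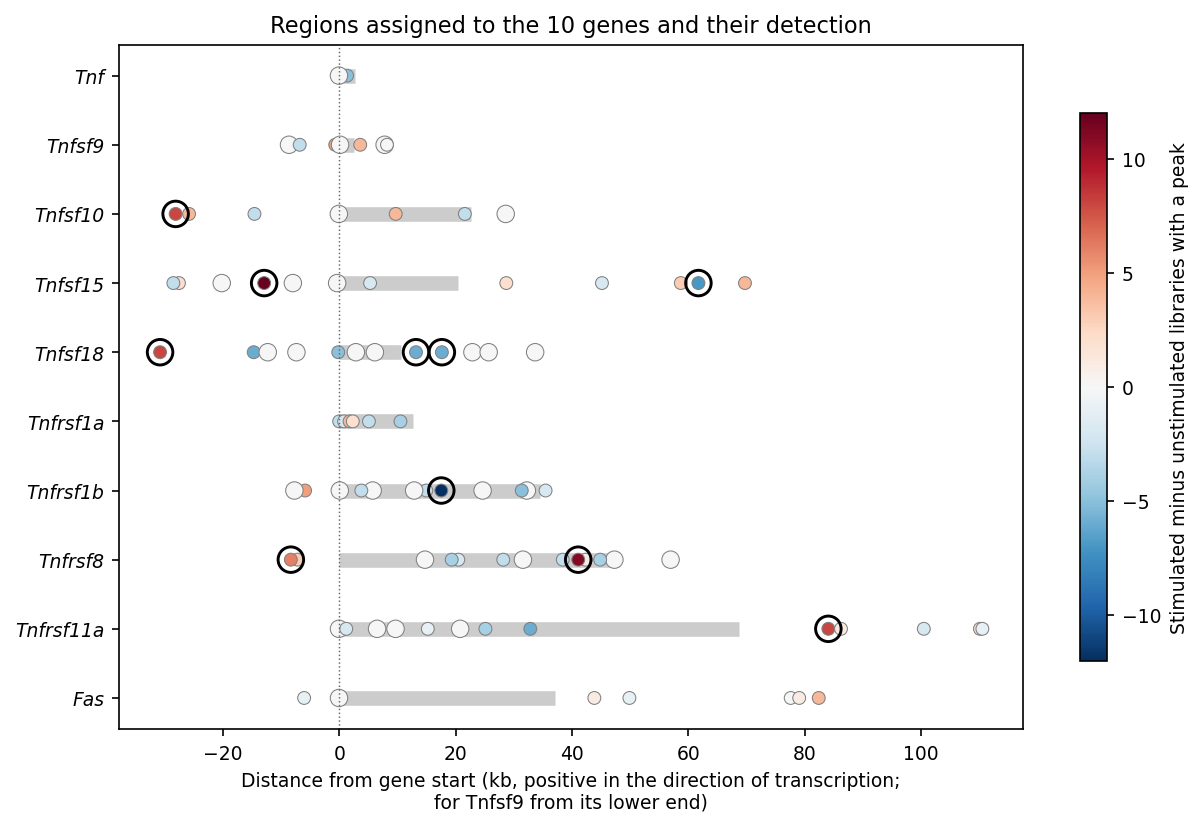
Positions of the 91 regions along the 10 genes (x axis, kb from the gene start, for Tnfsf9 from its lower end; grey bars, gene bodies). Colour gives stimulated minus unstimulated libraries with a peak, large points are the 31 regions found in all 24 libraries, and black rings are the 10 called regions, none of which lies at a gene start.

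Among the ligands, Tnfsf15 encodes TL1A, which co-stimulates T cells through the receptor Tnfrsf25. It had the clearest gain of the ligand genes, at chr4:63757686-63758251 (mm10), 12899 bp upstream of the gene. The peak was found in 6 of 6 stimulated diabetic and 6 of 6 stimulated control libraries and in none of the 6 unstimulated diabetic and 6 unstimulated control libraries. The authors' fold over local background at its summit had a lowest, median and highest value of 5.75, 8.79 and 11.01 in stimulated diabetic cells and of 7.21, 7.72 and 9.23 in stimulated control cells. The adjusted p was 6.17e-05 pooled, 0.0243 within diabetic and 0.0173 within control libraries. The same pattern over 24 libraries was shown by 232 other regions of the series, led by regions at Nfkb1 and Id2 and one with no gene within 50 kb.

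A second Tnfsf15 region, chr4:63683130-63683489 and 41281 bp downstream, was lost: it was found in 2 stimulated diabetic and no stimulated control libraries, against 5 unstimulated diabetic and 4 unstimulated control libraries (adjusted p = 0.0489). The call ended in peak lists cut to an equal length of 41385, that of the shortest list (unadjusted exact p = 0.0373). Its folds were low in both states, between 3.80 and 4.42 in the stimulated and between 3.75 and 6.96 in the unstimulated libraries that had it. A region over the start of Tnfsf15 was found in all 24 libraries, with its strongest summit at -567 to -247 bp relative to the start. A peak reached the 250 bases before the start in 23 libraries, and a summit lay there in 7. With all peaks, the gene thus had a constant region over its start, a gained region on one side and a lost one on the other. In lists of equal length other Tnfsf15 regions also passed as gained. One lay 49283 bp downstream, found in 4, 6, 1 and 1 libraries in the same order of groups (adjusted p = 0.0193). Another lay 27541 bp upstream, found in 6, 6, 5 and 0 (adjusted p = 0.0219). The downstream side thus held a gain and no loss in those lists.

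Tnfsf18 encodes GITRL, the ligand of the T cell receptor GITR. Its gained region, chr1:161463691-161464059, lay 30787 bp upstream and was found in 4 of 6 stimulated diabetic and 4 of 6 stimulated control libraries and in no unstimulated library (adjusted p = 0.0101). The fold there stayed between 4.20 and 6.39, and the call ended in lists of equal length (unadjusted exact p = 0.0373). Both lost regions lay beyond the other end of the gene. That at chr1:161507630-161508026, 2567 bp downstream, was found in 4 stimulated diabetic and 2 stimulated control libraries, against all 6 of either unstimulated group (adjusted p = 0.0489). Its fold was 3.93 to 6.03 in the 6 stimulated libraries that had it and 6.45 to 10.2 in the 12 unstimulated ones. The percentiles of these folds within their own lists overlapped, from 5.17 to 52.3 in stimulated and from 48.5 to 77.8 in unstimulated libraries.

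The other lost Tnfsf18 region, chr1:161512127-161512570 and 7013 bp downstream, was found in all 6 stimulated diabetic libraries and in none of the 6 stimulated control libraries, against all 6 of either unstimulated group. It passed pooled (adjusted p = 0.0489) and within control libraries (0.0173). In lists of equal length the stimulated minus unstimulated difference was -6 libraries pooled and -3 within control libraries, and neither passed (unadjusted exact p = 0.0391 and 0.182). At the start of Tnfsf18 the peak was found in 4 stimulated diabetic, 2 stimulated control, 6 unstimulated diabetic and 5 unstimulated control libraries, which did not pass with all peaks (adjusted p = 0.162). In lists of equal length it was found in 1, 1, 6 and 5 libraries and passed (adjusted p = 0.00565).

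Tnfsf10 encodes TRAIL, which triggers apoptosis through death receptors. A region at chr3:27288756-27289265, 28113 bp upstream, was found in 4 of 6 stimulated diabetic and 4 of 6 stimulated control libraries and in no unstimulated library (adjusted p = 0.0101), with folds of 4.03 to 8.76. This call also ended in lists of equal length (unadjusted exact p = 0.0373). Peaks assigned to Tnfsf10 numbered 5, 4, 4, 4, 4 and 4 in stimulated diabetic libraries and 3, 4, 3, 2, 2 and 2 in unstimulated diabetic libraries, so the groups met at 4 peaks. That difference, 4.17 ± 0.408 against 2.67 ± 0.816 (SD, n = 6 each), had an exact permutation p of 0.0130 over all label orders (adjusted p = 0.381). The start of Tnfsf10 had a peak in all 24 libraries.

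Tnf, the founding cytokine of the family, had only 2 regions and no call. The region over its start, chr17:35201559-35202732, was found in all 24 libraries, with the strongest Tnf summit at -134 to -2 bp relative to the start, inside the sequence shown above. It also held summits nearest to the neighbouring gene Lta. The 6 stimulated diabetic libraries held 12 peaks in this region and the 6 stimulated control libraries 9, against 6 in either unstimulated group. The authors' fold there was 3.82, 4.97 and 6.73 (lowest, median and highest) in stimulated and 4.25, 6.09 and 7.92 in unstimulated libraries, ranges that overlap.

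The second Tnf region, chr17:35200303-35200905, lay inside the gene, 1360 bp from the start. It was found in 5 stimulated diabetic and 2 stimulated control libraries, against all 6 of either unstimulated group, and did not pass (adjusted p = 0.0967). Its fold was 3.38 to 5.20 in the 7 stimulated libraries that had it and 6.30 to 12.1 in the 12 unstimulated ones, so these ranges did not overlap. In lists of equal length it was found in 5, 1, 6 and 6 libraries of stimulated diabetic, stimulated control, unstimulated diabetic and unstimulated control cells and passed as lost pooled (adjusted p = 0.0472) and within control libraries (0.0440).

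Tnfsf9 encodes 4-1BBL, which co-stimulates T cells through Tnfrsf9. Of its 7 regions 3 were constant. One of these, chr17:57105092-57105923, lay over its lower end, and another, chr17:57096036-57096818, had its summit nearest to Tnfsf9 in 7 libraries and nearest to Tubb4a in the others. The largest difference was at chr17:57104471-57104849, 682 bp below the gene, found in 4 stimulated diabetic and 3 stimulated control libraries, against none of the unstimulated diabetic and 2 of the unstimulated control libraries (adjusted p = 0.200). The promoter table did not hold Tnfsf9 and the gene table gives no strand, so no upstream or downstream side was assigned.

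**Figure D2:**
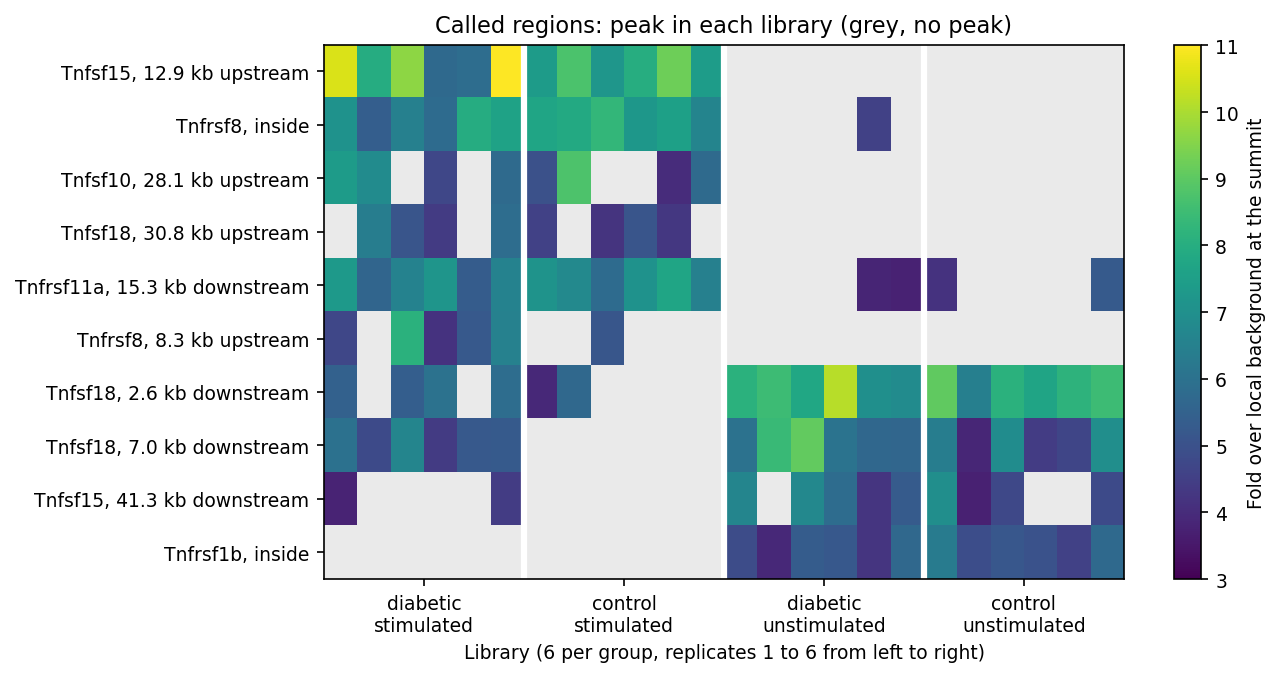
The 10 called regions (rows) in the 24 libraries (columns, 6 per group). Colour gives the authors' fold over local background at the summit, and grey means no peak: the regions 12.9 kb upstream of Tnfsf15 and inside Tnfrsf1b separate the states completely.

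Among the receptors, Tnfrsf1b encodes TNFR2, which lacks a death domain. Its one called region, chr4:145229117-145229481, lay inside the gene, 17546 bp from the start. It was lost: no stimulated diabetic and no stimulated control library had the peak, against all 6 unstimulated diabetic and all 6 unstimulated control libraries. The fold was 3.93, 5.04 and 5.71 (lowest, median and highest) in unstimulated diabetic and 4.55, 5.09 and 6.32 in unstimulated control cells. The adjusted p was 6.17e-05 pooled, 0.0243 within diabetic and 0.0173 within control libraries, and 140 other regions had the same pattern, led by those at Hpgd, Slc7a13 and Myo10. Constant regions numbered 6 at this gene, including its start, where the strongest summits lay at -2 to 603 bp relative to it, mostly past the sequence shown.

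Tnfrsf8 encodes CD30, and its gene lies next to Tnfrsf1b on chromosome 4. The region chr4:145273883-145274290, inside Tnfrsf8 and 41080 bp from the start, was found in 6 of 6 stimulated diabetic and 6 of 6 stimulated control libraries, against 1 of 6 unstimulated diabetic and none of 6 unstimulated control libraries. Its fold was 5.41, 7.40 and 8.31 (lowest, median and highest) in stimulated libraries and 4.56 in the 1 unstimulated library with the peak. It was gained pooled (adjusted p = 0.000303) and within control libraries (0.0173), and within diabetic libraries the adjusted p was 0.0559.

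Upstream of Tnfrsf8, chr4:145323338-145323680, 8310 bp from the start, was found in 5 of 6 stimulated diabetic and 1 of 6 stimulated control libraries and in no unstimulated library. It passed pooled (adjusted p = 0.0489). The difference between stimulated diabetic and stimulated control libraries at this region did not pass (adjusted p = 0.835). Cutting the lists to equal length left a difference of 4 libraries between the states and no call (unadjusted exact p = 0.0932).

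Tnfrsf11a encodes RANK, the receptor for RANKL through which osteoclasts form from macrophage precursors. Its gained region, chr1:105864149-105865853, lay 15302 bp downstream and was found in all 6 stimulated diabetic and all 6 stimulated control libraries, against 2 of either unstimulated group (adjusted p = 0.0101). Its fold was 5.32 to 7.72 in stimulated libraries and 3.78 to 5.28 in the 4 unstimulated ones that had it, so the ranges did not overlap. In lists of equal length the states separated completely, with 12 stimulated and no unstimulated libraries (adjusted p = 4.21e-05). The start of Tnfrsf11a had a peak in all 24 libraries, with summits at -68 to 29 bp relative to it.

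Tnfrsf1a encodes TNFR1, the death domain receptor of TNF, and none of its 6 regions was constant or called. The peak at its start, chr6:125349481-125349999, was found in 4 stimulated diabetic, 1 stimulated control, 4 unstimulated diabetic and 4 unstimulated control libraries (adjusted p = 0.597), with low folds of 3.25 to 4.25. The most frequent peak, chr6:125354543-125355118, inside the gene, was found in 5, 4, 6 and 6 libraries in the same order of groups. The largest differences were 4 stimulated against no unstimulated libraries at chr6:125351349-125351602 and 1 against 5 at chr6:125360136-125360407, and neither passed. The first could not pass at any outcome of its test, because a peak in 4 of 24 libraries gives no unadjusted p under 0.05.

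Fas, the death receptor for Fas ligand, had 1 constant region out of 7, over its start at chr19:34290041-34291284, and no call. The largest difference in detection was at chr19:34372915-34373201, 45292 bp downstream, found in 4 stimulated diabetic and 1 stimulated control libraries, against 1 unstimulated diabetic and no unstimulated control libraries (adjusted p = 0.308).

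**Figure D3:**
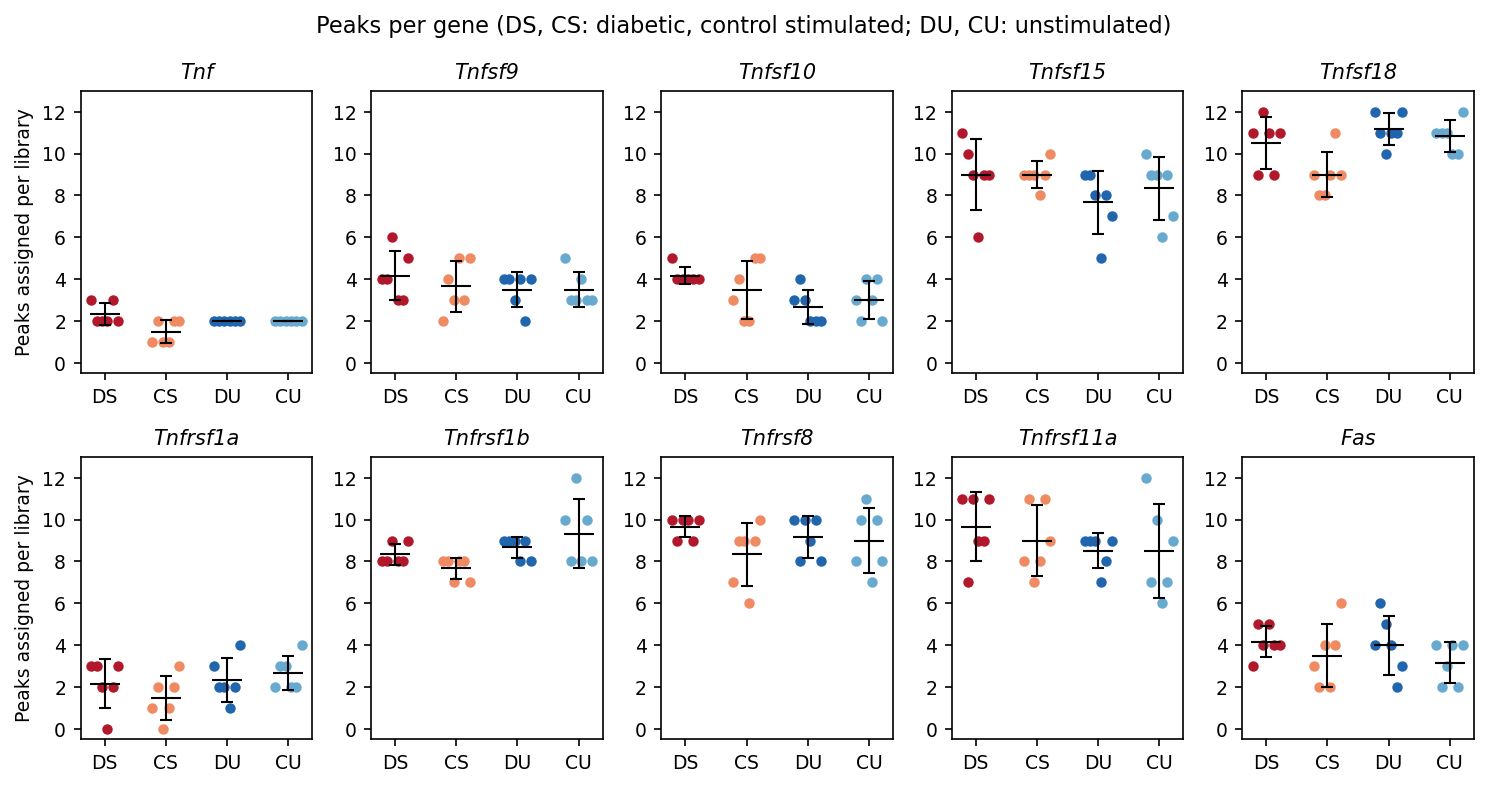
Peaks assigned to each gene per library (y axis, number of peaks; points, 6 libraries per group; bars, mean and SD). The groups overlap at every gene, and Tnf had exactly 2 peaks in all unstimulated libraries.

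Peaks per gene were compared across all genes by exact permutation, and no gene passed in any of the 4 comparisons (0 of 15129 genes for stimulation in diabetic, 15236 in control cells, 14727 for phenotype without and 15109 with stimulation), so percent called was 0 in each. The smallest adjusted p over all genes was 0.0914, for stimulation in control cells. Besides Tnfsf10, Tnfsf18 reached an unadjusted p under 0.05, with 9 ± 1.10 peaks in stimulated control against 10.8 ± 0.753 in unstimulated control libraries (SD, n = 6 each; exact permutation p = 0.0195, adjusted p = 0.215). Peaks per gene were not scaled to list length, and stimulated control lists were shorter than unstimulated control ones (means of 47268 and 55990 peaks). The part of list length in this difference was not tested. Over all genes, 1184 of 15129 were under 0.05 for stimulation in diabetic cells, where Tnfsf10 was. For stimulation in control cells, where Tnfsf18 was, 2188 of 15236 were.

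Within one phenotype, stimulation gained 1 member region (Tnfsf15) and lost 1 (Tnfrsf1b) of 15 testable in diabetic cells, against 5.47% gained and 3.44% lost of all 11708 tested. In control cells 2 were gained (Tnfsf15 and Tnfrsf8) and 2 lost (Tnfrsf1b and Tnfsf18) of 15 testable, against 8.41% gained and 27.5% lost of all 12111 tested. These shares depend on single libraries and on list length. On omission of 1 library, the lost regions of the whole series in control cells numbered 4109 to 4447 without stimulated replicate 5, stimulated replicate 6 or unstimulated replicate 2 and 1149 to 1325 without any other library, against 3331 with all. In lists of equal length, 15.6% were gained and 18.8% lost of all tested in control cells, and 17.7% and 14.6% in diabetic cells. Adjustment over all regions left no member call within either phenotype. That both phenotypes do not show the same calls is no test of a difference between them. With 6 libraries against 6, Fisher's exact test cannot go below 0.00216.

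The second comparison asked whether diabetes of the donor changed these regions. No member region passed in Fisher's exact test of stimulated diabetic against stimulated control libraries, where 0% of 9681 tested regions passed, or of unstimulated diabetic against unstimulated control libraries, where 0% of 8788 passed. Unadjusted p-values under 0.05 were reached by 1 member and 292 regions in all with stimulation and by 1 member and 137 regions without. With stimulation that member was the Tnfsf18 region 7013 bp downstream, found in 6 of 6 diabetic and 0 of 6 control libraries (exact p = 0.00216, adjusted p = 0.502). Its folds in the 6 diabetic libraries were 4.38 to 6.63. Stimulated control lists were shorter than stimulated diabetic ones (means of 47268 and 53703 peaks). In lists of equal length the loss of this region within control libraries no longer passed. The part of list length in this split was not tested. The smallest p was reached by 26 regions, and about 420 would have been needed for it to pass the adjustment, so this design called nothing unless many regions separated completely. Without stimulation it was the Tnfrsf8 region chr4:145295685-145295972, found in 6 of 6 diabetic and 1 of 6 control libraries (exact p = 0.0152, adjusted p = 0.972).

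The response to stimulation was then compared between phenotypes by Zelen's exact test, which asks whether the odds ratio is the same in both, and 0% of 9353 tested regions passed. The same Tnfrsf8 region was the only member under an unadjusted p of 0.05. It was found in 1 stimulated diabetic and 2 stimulated control libraries, against 6 unstimulated diabetic and 1 unstimulated control libraries (exact p = 0.0369, adjusted p = 1), and 229 regions in all were under 0.05. At the Tnfsf18 region 7013 bp downstream the test was uninformative, because every diabetic library had the peak. No difference between phenotypes in these regions passed these tests, which does not show that the phenotypes are alike.

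Regions found in every library can still differ in strength. Each list was cut to its 41385 peaks of smallest q-value, and the rank of the authors' fold within that list was taken as a percentile. This is a description with no test. Of the 23 member regions found in all 24 shortened lists, which include the one shared with Tubb4a, 3 had every stimulated library above every unstimulated one, against 0.326% of all 18998 such regions, and none had every one below, against 0.542% of all. Stimulated medians were higher at 12 and lower at 11 of the 23, so the set as a whole did not lean to one side: the median change was 0.996 percentile points, against 0.474 over all such regions.

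The 3 regions that separated belonged to receptors. At the start of Fas the percentile had a lowest, median and highest value of 74.3, 81.3 and 88.2 in stimulated and of 41.1, 51.1 and 72.8 in unstimulated libraries. The states overlapped there in the fold itself (8.40 to 11.01 in stimulated and 6.72 to 10.4 in unstimulated libraries) and in its percentile within the full lists (80.0 to 90.4 and 52.6 to 80.7). Inside Tnfrsf8, chr4:145283266-145284059 had 77.2, 94.7 and 97.9 in stimulated and 19.1, 46.5 and 64.2 in unstimulated libraries. A second region inside it, chr4:145300029-145300715, had 72.2, 80.1 and 95.2 in stimulated and 33.5, 50.3 and 59.1 in unstimulated libraries. The start of Fas is the sequence above with AP-1 and κB matches. Such matches also stood at the Tnfrsf8 start, which had almost no peaks, and a link of matches to ranks was not tested. Both Tnfrsf8 regions lie far from that start.

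**Figure D4:**
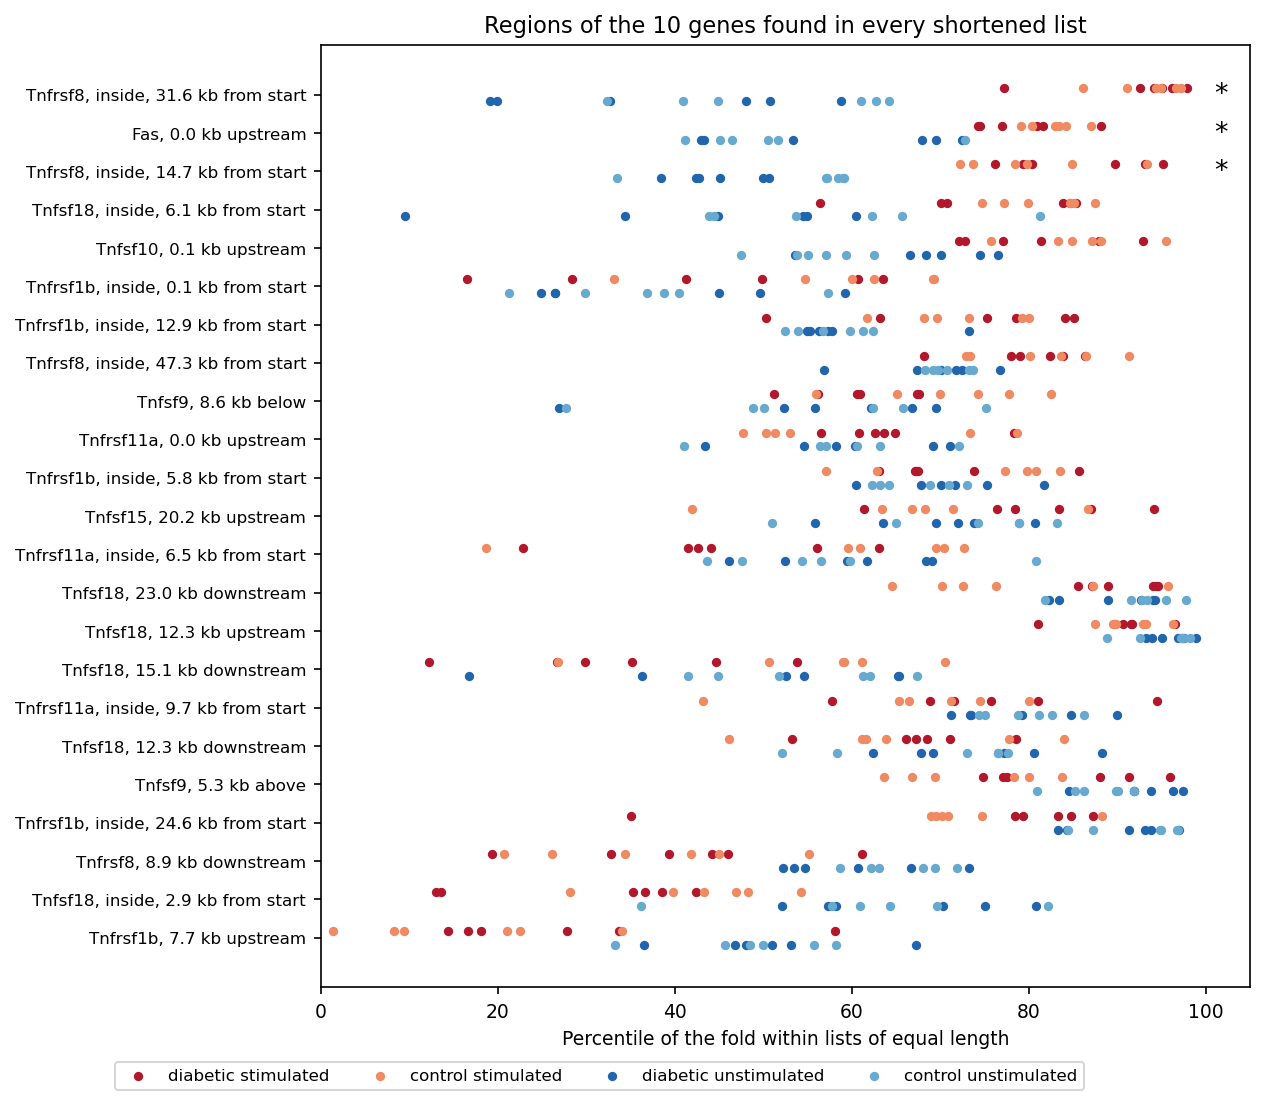
Percentile of the authors' fold within lists of equal length (x axis) at the 23 member regions found in every shortened list (rows), 1 point per library, stimulated libraries above unstimulated ones in each row. Asterisks mark the 3 regions, 2 inside Tnfrsf8 and 1 at the Fas start, where the states do not overlap.

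Related genes were taken from lists of textbook members. At 36 other TNF superfamily genes, 9 of 68 testable regions were gained with stimulation (13.2%) and 10 lost (14.7%), with 2 genes only gaining, 4 only losing, 3 doing both and 27 without a call. At 27 genes of TNF receptor signalling, 6 of 39 were gained (15.4%) and 9 lost (23.1%), with 5 genes only gaining, 6 only losing, 1 doing both and 15 without a call. The background shares over all regions were 9.19% and 18.9%.

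Several of the largest differences lay at neighbours of the genes above. Tnfsf8, the ligand of Tnfrsf8 and the neighbour of Tnfsf15, gained a region inside the gene, chr4:63837792-63838338, found in 12 stimulated and no unstimulated libraries (adjusted p = 6.17e-05), and lost one 7417 bp away, found in 1 stimulated and 11 unstimulated libraries (0.00176). Tnfsf4, which encodes OX40L and neighbours Tnfsf18, gained regions 41940 bp away (12 and 0 libraries; adjusted p = 6.17e-05) and 16401 bp away (12 and 1; 0.000303). Tnfrsf14, which encodes the receptor HVEM, lost a region 6605 bp away (0 and 12 libraries; adjusted p = 6.17e-05) and gained one 4725 bp away (12 and 4; 0.0101). Cd40 lost one inside the gene (1 and 11; 0.00176) and gained one 5895 bp away (7 and 0; 0.0235), Cd27 lost one 15313 bp away (2 and 12; 0.00128), and Tnfrsf11b, which encodes the RANKL decoy osteoprotegerin, gained one 23377 bp away (10 and 0; 0.00128). Of the signalling genes, Tab2, which encodes an adaptor of the kinase TAK1, gained a region inside the gene (11 and 0; adjusted p = 0.000303). Regions inside the adaptor genes Traf5 (2 and 11; lost) and Traf1 (9 and 0; gained) came next, and Map3k7 (0 and 9; lost) and another Tnfsf4 region (11 and 2; gained) had the same difference farther from the gene.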

How the data were processed

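The authors deposited 1 narrowPeak list per library, called separately, in mm10. Tools listed in the submitters' processing notes were MACS2 2.1.1, Bowtie2 2.2.6, edgeR, DiffBind 2.4.8, FastQC 0.11.3 and Trim Galore 1.8. What each did, with which settings, and whether reads were shifted for Tn5 is not given in the sources used here. The deposited lists give every peak a score (10 times the −log10 q-value, as an integer), a fold over local background, and −log10 p-values and −log10 q-values. These are the authors' own values and were used to describe, filter or rank the peaks of 1 list, which ends at a q-value of about 0.05. Per the labels' protocols, 50000 cells per replicate were used, fragments above 1200 bp removed and single reads of 50 bp sequenced.

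Peaks overlapping by at least 1 bp were merged, and regions in at least 2 libraries were scored as found or not found. Summits were assigned to the nearest RefSeq protein-coding gene body (GRCm38.p6) within 50 kb, without resolving exons, introns or UTRs. A region may act on another gene than its nearest. Tests were Fisher's and Zelen's exact tests per region over all testable regions, and exact permutation (all label orders) of peaks per gene over all genes, each Benjamini-Hochberg adjusted at 0.05 (Python 3.11.15, scipy 1.17.1). Fisher's test was also run on simulated detections with independent libraries and near-complete planted changes. That does not show how it behaves where libraries depend on each other or changes are smaller. The deposited fold and −log10 p-value together gave the expected background tags at each of a sample of peaks. The most frequent value in a library's list was 0.66 to 1.01 tags, a measure of relative depth. It held at 11.8 to 22.6% of those peaks. All 10 genes are named, with their called regions and, where none was called, the region with the largest difference and the most frequent ones. Other regions of interest (starts, regions called in lists of equal length, and those at unadjusted p under 0.05) were chosen after their values were seen. Of the related lists, the called regions with the 10 largest differences are named, ties by distance to the gene (Traf5 and Traf1 tied for the last place), and other regions of the same genes or difference were added after their values were seen. The genes and lists were chosen with earlier results of these data known. Alternatives were equal list lengths, a stricter q-value, summit windows, distance, minimum libraries, adjustment over all regions, a replicate block and leaving out each library.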

Additional observations from a re-analysis of the deposited data

Results flagged for a closer look

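Among 67 groups of 6 values checked for a library far from its group, 3 had one. Chance gives about 1 in 20 for continuous values, a rate that need not hold for small counts with ties, as in these 3. Peaks assigned to Tnfsf10 numbered 5 in stimulated diabetic replicate 1 and 4 in each of the other stimulated diabetic libraries. Peaks assigned to Tnfrsf1a numbered 0 in stimulated diabetic replicate 4, where the nearest library had 2 and the highest 3. Peaks assigned to Tnfsf18 numbered 11 in stimulated control replicate 5, where the nearest libraries had 9 and the lowest 8.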

How the results depend on the processing

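With both phenotypes pooled, 6 gained and 4 lost member regions were called. Gained regions numbered 3 with only peaks that reached a −log10 q-value of 5 and 2 with summits at most 10 kb from the gene. Lost regions numbered 1 when p-values were adjusted over all regions, 1 with windows of 100 bp around summits and 2 with a replicate block. Within diabetic libraries, gained and lost regions (1 and 1) numbered 0 and 0 when adjusted over all regions and 4 and 2 in lists of equal length, while gained regions numbered 2 with the stricter q-value and 0 within 10 kb. Within control libraries, gained and lost regions (2 and 2) numbered 0 and 0 when adjusted over all regions and 4 and 4 with the stricter q-value, while gained regions numbered 5 in lists of equal length and 1 within 10 kb. No direction reversed under any of these settings. The cause was not tested. In lists of equal length, the shares gained and lost over all tested regions were 13.2% and 15.9% pooled, 17.7% and 14.6% in diabetic and 15.6% and 18.8% in control libraries. No such shares are given for the stricter q-value, so its member counts cannot be set against the series.

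Of the 10 pooled calls, 6 were kept when adjusted over all regions, 5 in lists of equal length, 6 with the stricter q-value, 6 with summit windows and 7 with the replicate block. Leaving out 1 library at a time, an alternative chosen after seeing the data, gave 5 to 6 gained and 1 to 7 lost regions pooled, 1 to 2 gained and 1 to 2 lost in diabetic, and 2 to 3 gained and 2 to 3 lost in control libraries. Pooled losses numbered 5 to 7 without any one stimulated diabetic library or stimulated control replicate 6, and 1 to 3 without any one of the other 17 libraries. Lost regions of the whole series moved the same way, with 6439 to 7115 in the first case and 4654 to 5280 in the second. With all libraries 5901 were lost. Within diabetic libraries, gained regions numbered 2 without stimulated replicate 2 or unstimulated replicate 5, and lost regions 2 without stimulated replicate 5. Within control libraries, lost regions numbered 3 without stimulated replicate 5 or 6. The calls at an adjusted p of 0.0489 ended in 14 of the 24 omissions for Tnfsf15 (41281 bp), 15 for Tnfsf18 (2567 bp), 17 for Tnfsf18 (7013 bp) and 13 for Tnfrsf8 (8310 bp), and the other 6 pooled calls held in all 24. Pooled, lists of equal length called 5 gained and 4 lost member regions, and 4 of these were not called with all peaks. Those were the lost regions inside Tnf and at the start of Tnfsf18, and the gained Tnfsf15 regions 49283 bp downstream and 27541 bp upstream. Within diabetic libraries a Tnfrsf1b region 5864 bp upstream was also gained there (adjusted p = 0.0468). The number of testable member regions in these lists is not given, so these counts are not set as shares against the series. Libraries of the same number did not deviate together (correlations of -0.00984 to 0.0159, with 2 of 12 pairs correlating best with their own number). This does not show whether a number marks 1 mouse, so the pairing remains unknown.

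Peak lists show presence above a threshold, not the level of accessibility, and depth is known only relatively. Complete separation of 6 against 6 libraries passes the adjustment only where about 381 (phenotype without stimulation) to 525 (stimulation in control cells) regions of the series separate.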
